A study of Mus musculus with 6 samples.

Results

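The monocyte-attracting CC chemokines Ccl2, Ccl7, Ccl3, Ccl5 and Ccl20 were followed in mouse cells labelled as lymphatic endothelial cells. These 5 genes were picked by symbol from the 15528 genes of the deposited tables, with their values in the same comparison already known, so their own differences between the groups are given as a description and without a test. All 5 symbols are listed. The tested group was 3 libraries of cells treated with red blood cells, set against 3 control libraries, and every sample was taken at 24 h. The labels give neither the origin and dose of the red blood cells nor the source of the lymphatic endothelial cells, and do not say whether replicates were separate cultures, so a p-value here reflects variation among libraries that could be purely technical. The study behind the series concerns mouse brain injury after bleeding into the subarachnoid space and the lymph nodes of the neck.

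CC chemokines are small secreted proteins named for a pair of adjacent cysteines near the start of the mature protein. They bind heparan sulfate on cell surfaces and draw leukocytes along their gradient through G protein-coupled receptors. Ccl2 and Ccl7 act on the receptor Ccr2 and bring monocytes out of the blood. Ccl3 and Ccl5 act on Ccr1, which monocytes and macrophages carry, among other receptors, and Ccl20 acts on Ccr6 of lymphocytes and dendritic cells. In lymphatic endothelium the best known member of the family is Ccl21a, which guides dendritic cells into lymphatic vessels through Ccr7.

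The stretches of coding sequence that carry the cysteine pair are shown because they identify the transcripts counted here. They come from the GENCODE M21 transcripts, 60 bases each, and capitals mark the codons of the 2 cysteines.
Ccl2: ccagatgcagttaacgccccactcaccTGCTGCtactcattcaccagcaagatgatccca
Ccl7: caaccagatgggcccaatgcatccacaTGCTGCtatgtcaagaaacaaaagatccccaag
Ccl3: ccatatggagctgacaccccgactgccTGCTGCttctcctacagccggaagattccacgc
Ccl5: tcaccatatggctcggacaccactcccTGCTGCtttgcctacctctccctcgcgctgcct
Ccl20: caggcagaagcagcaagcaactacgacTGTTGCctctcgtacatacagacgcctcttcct
The pair began at coding base 100 in Ccl2 and Ccl3 and at coding base 97 in Ccl7, Ccl5 and Ccl20, counted from the first base of the start codon. The Ccl2 reading frame was the longest, with 148 codons before the stop, against 97 in Ccl7 and Ccl20, 92 in Ccl3 and 91 in Ccl5. Aligned coding sequences were identical at 66.7% of bases between Ccl2 and Ccl7, the closest pair, and at 57.2% between Ccl7 and Ccl5, the most distant. None of the stretches of 50 bases in these 5 transcripts occurred in a GENCODE transcript of another gene, so reads of that length or longer that match exactly could not be shared between these chemokines.

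Promoter windows were found for 2 of the 5 genes, Ccl3 and Ccl20, which are shown as examples of a member above and a member within counting error between the groups. They are the 250 bases before the transcript start from RefSeq, on build GRCm38.p6, and capitals mark the only matches among 6 searched motifs.
Ccl3, chr11:83649379-83649628, minus strand: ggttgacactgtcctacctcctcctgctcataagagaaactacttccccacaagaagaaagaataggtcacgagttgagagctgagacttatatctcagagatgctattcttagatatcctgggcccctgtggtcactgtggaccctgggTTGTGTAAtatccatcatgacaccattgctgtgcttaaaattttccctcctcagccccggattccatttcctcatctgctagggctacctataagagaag
Ccl20, chr1:83116516-83116765, plus strand: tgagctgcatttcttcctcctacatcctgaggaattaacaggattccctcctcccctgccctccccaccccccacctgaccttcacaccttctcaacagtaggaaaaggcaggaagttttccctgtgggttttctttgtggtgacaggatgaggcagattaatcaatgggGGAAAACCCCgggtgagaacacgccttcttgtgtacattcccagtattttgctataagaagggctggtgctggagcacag
In Ccl20 the capitals are a match to the kappaB consensus on the opposite strand, 80 to 71 bases before the start, which 8.46% of the 32851 RefSeq windows also hold. In Ccl3 they are a match to the C/EBP motif TTNNGNAA, 100 to 93 bases before the start, which 40.7% of windows hold. The AP-1 motif TGANTCA (7.81% of windows), the TATA box TATAAA (13.6%), the GC box GGGCGG (35.7%) and the interferon-stimulated response element (3.44%) had no exact match on either strand of these windows. A match is a string of letters and says nothing of binding in these cells.

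Total counts lay between 18000112 and 18327247 in the treated libraries and between 17263359 and 18381419 in the controls. Control replicate 2 stood apart. Its chi-square per gene was 28.1 and 26.7 when set beside the other controls, while pairs of treated libraries gave 1.73 to 2.13 and the other pair of controls 1.99. It did not stand apart in Ccl2. Markers of the labelled cell type were mixed. Of 12 lymphatic markers 8 are listed, summing to 562 to 594 CPM in treated libraries and 400 to 503 CPM in controls. Nrp2 held 361 ± 16.1 CPM in treated libraries and 272 ± 52.5 CPM in controls, Nr2f2 held 146 ± 3.46 and 161 ± 1.38 CPM in the same order, and Stab1, the one called (higher, edgeR adjusted p = 0.0029), held 63.5 ± 0.50 and 30.9 ± 5.86 CPM (SD, n = 3 each). Flt4 had 191 counts over the treated libraries and 193 over the controls. Pdpn had 2 and 6 in that order, Sox18 had 2 and 2, Reln had 5 and 4, and Itga9 had 1 and 0. Prox1, Lyve1, Mmrn1 and Ccl21a are not listed. Of 12 pan-endothelial markers 8 are listed. Eng held 98.96 ± 0.71 CPM in treated libraries and 99.3 ± 8.19 CPM in controls (SD, n = 3 each). Pecam1 had 747 counts over the treated libraries and 802 over the controls, and Egfl7 had 235 and 220 in that order. The other listed genes were near the floor in both groups. Cdh5 had 11 and 7 counts in the same order, Vwf had 15 and 8, Esam had 4 and 7, Tek had 3 and 3, and Kdr had 1 and 0. Cldn5, Emcn, Erg and Tie1 are not listed. The name lymphatic endothelial is kept as the label gives it.

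Ccl2, the main monocyte attractant acting on Ccr2, was the most abundant of the 5 chemokines. It had 688, 704 and 642 counts in treated replicates 1 to 3, against 97, 99 and 94 counts in control replicates 1 to 3. The lowest treated library thus lay far above the highest control, and neither group spread widely. Scaled to the library total as CPM this was 37.4 ± 1.54 CPM in treated libraries and 5.42 ± 0.18 CPM in controls (SD, n = 3 each). The log2 fold change was 2.79 ± 0.08 (SE, derived from the test statistic of the edgeR fit), a 6.90-fold higher level with red blood cells. Among tested genes ordered by CPM, Ccl2 stood at percentile 47.9 in treated libraries and at percentile 14.7 in controls.

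Ccl7, which shares the receptor Ccr2 and lies next to Ccl2 on chromosome 11, showed the same order of libraries between groups. It had 361, 386 and 359 counts in treated replicates 1 to 3, against 72, 85 and 67 counts in control replicates 1 to 3. These are 20.4 ± 0.62 CPM in treated libraries and 4.18 ± 0.43 CPM in controls (SD, n = 3 each), with a log2 fold change of 2.28 ± 0.10 SE, or 4.86-fold higher. Control replicate 2 held the highest Ccl7 level of the 3 controls, 0.12 above their mean on the log2 scale, and was still far below every treated library.

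Ccl3, the macrophage inflammatory protein that acts on Ccr1, was almost absent from the controls. It had 27, 26 and 17 counts in treated replicates 1 to 3, against 1, 0 and 1 counts in control replicates 1 to 3. The 70 counts over the treated libraries and 2 over the controls gave a ratio of 34.5 (exact Clopper-Pearson 95% interval 9.19 to 290.1, counting error only). The groups did not overlap, and even the lowest treated library lay well above the controls. At 1.29 ± 0.30 CPM in treated libraries (SD, n = 3), Ccl3 remained at percentile 5.01 of tested genes there. The leukocyte marker Ptprc had 36 counts over the same treated libraries and 0 over the controls, and its part in the Ccl3 result was not tested.

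Ccl5, known as RANTES and made in quantity by T cells and platelets, stayed near the limit of detection. It had 5, 3 and 6 counts in treated replicates 1 to 3, against 1, 0 and 0 counts in control replicates 1 to 3. The ratio of the 14 summed treated counts to the 1 control count was 13.8 (exact 95% interval 2.10 to 582.7). It was 9.05 without control replicate 2 and 9.18 without control replicate 3, and could not be given without control replicate 1, which held the count. The groups did not overlap, but the lowest treated library was only 2 counts above the highest control. Ccl5 and Ccl20 did not pass the filter on low counts, whereas the other 3 members did, Ccl3 through the treated libraries alone.

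Ccl20, the ligand of Ccr6, showed no difference that these depths could resolve. It had 1, 1 and 0 counts in treated replicates 1 to 3, against 0, 0 and 1 counts in control replicates 1 to 3. The groups overlapped, and the ratio of sums of 1.97 had an exact 95% interval from 0.10 to 116.1. The kappaB match shown above in its promoter window thus belongs to a gene with 3 counts in 6 libraries.

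**Figure D1:**
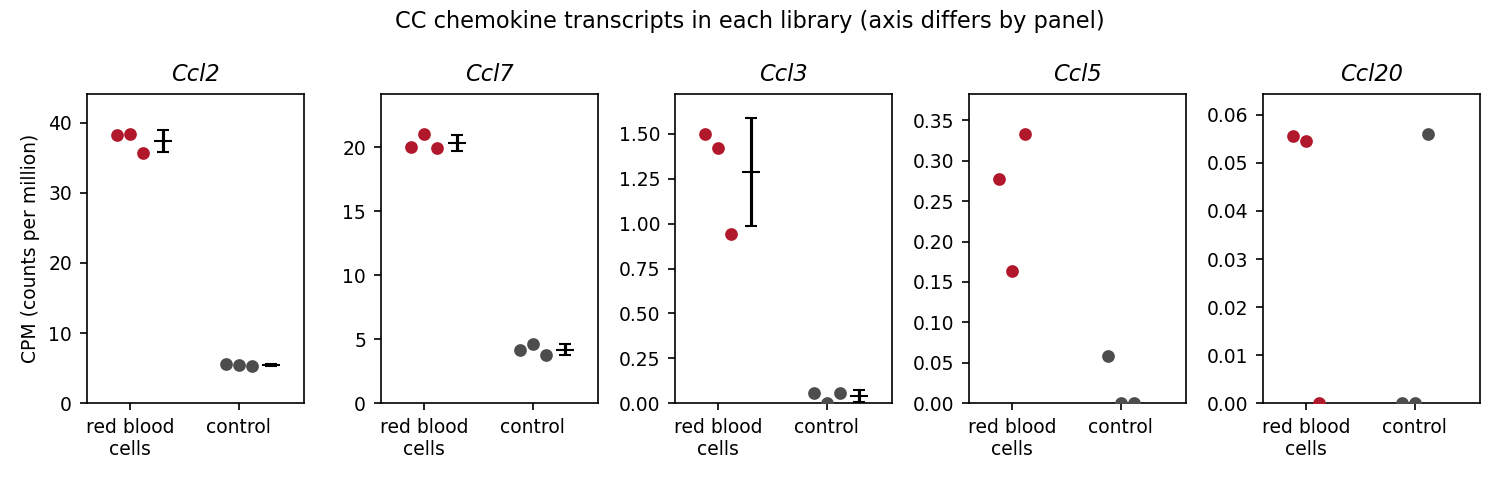
CPM of the 5 chemokines in each library, 3 treated (red, left) and 3 control (grey, right) points per panel, with mean and SD as a black bar for Ccl2, Ccl7 and Ccl3 only. The vertical axis starts at 0 and differs between panels. Ccl2 sits between 35.6 and 38.4 CPM in treated libraries and between 5.27 and 5.62 CPM in controls, while the points of Ccl20 are single counts.

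In the edgeR fit over all 11208 tested genes, 130 genes were called higher with red blood cells at a Benjamini-Hochberg adjusted p under 0.05, which is 1.16% of them. All 3 tested members were among these. Over both directions 1.46% of tested genes were called. On log2(FPKM + 1) with limma, 1.31% of 9976 genes were called and 1.02% were called higher. In 4 of the 5 members the CPM of the groups did not overlap, with the treated libraries higher, as in 9.16% of all listed genes and 10.4% of tested genes. Because the members were chosen from this comparison, nothing is read from either count. By fold change Ccl3, Ccl2 and Ccl7 stood at ranks 17, 25 and 28 among the rises of the tested genes. Ccl3 passed the filter on low counts through the treated libraries alone, so nothing is read from its call or its rank. With any 1 library left out the log2 fold change lay between 2.77 and 2.82 for Ccl2, between 2.21 and 2.36 for Ccl7 and between 4.34 and 5.23 for Ccl3.

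The spread among replicates of the members was close to what counting alone gives. The chi-square per degree of freedom of the counts against the library totals, which is near 1 for counting error only, was 1.2 for Ccl2, 0.34 for Ccl7 and 1.26 for Ccl3 among treated libraries. Among controls it was 0.10 for Ccl2, 0.82 for Ccl7 and 0.52 for Ccl3. Treated replicate 3 held the lowest level of each of Ccl2, Ccl7 and Ccl3 in its group, at 0.07, 0.03 and 0.23 below the mean on the log2(CPM + 1) scale.

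Levels of different genes can be compared only per length, and the deposited FPKM (fragments scaled to gene model length and library total) allow this. The gene models, computed from both tables, were 806 bases for Ccl2, 801 for Ccl7, 790 for Ccl3, 532 for Ccl5 and 802 for Ccl20. Summed over the 5 chemokines the level was 74.95, 76.1 and 70.9 FPKM in treated replicates 1 to 3, against 12.4, 12.5 and 11.4 FPKM in control replicates 1 to 3. The mean sum was 6.14-fold higher with red blood cells. Nearly all of it was Ccl2 and Ccl7 in both groups.

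The balance between these 2 ligands of Ccr2 also differed. Ccl2 had 1.89, 1.81 and 1.78 times the FPKM of Ccl7 in treated replicates 1 to 3, against 1.34, 1.16 and 1.39 times in control replicates 1 to 3. The ratio was 1.83 ± 0.06 in treated libraries and 1.30 ± 0.12 in controls (SD, n = 3 each), and the groups did not overlap. Ccl2 accordingly made up 62.7 ± 0.48% of the summed FPKM in treated libraries and 55.9 ± 1.99% in controls, and Ccl7 made up 34.3 ± 0.86% and 43.2 ± 2.73% in the same order. Without control replicate 2 the control ratio was 1.37. The order by mean FPKM in treated libraries was Ccl2 (46.4), Ccl7 (25.4), Ccl3 (1.63), Ccl5 (0.49) and Ccl20 (0.05), and neighbouring members of this order did not overlap there. In controls Ccl2 (6.73 FPKM) lay above Ccl7 (5.22 FPKM) in every library, while Ccl3, Ccl5 and Ccl20 had at most 1 count per library and could not be ordered.

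**Figure D2:**
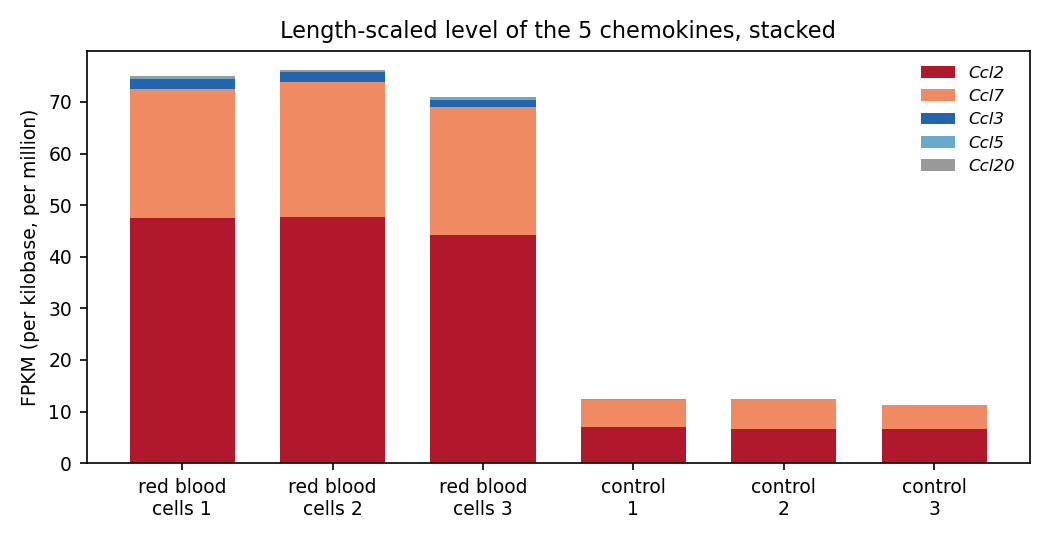
FPKM of the 5 chemokines stacked for each library, 3 treated on the left and 3 control on the right, with the axis starting at 0. The stacks reach 70.9 to 76.1 FPKM in treated libraries and 11.4 to 12.5 FPKM in controls, with Ccl2 and Ccl7 filling nearly all of each.

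The other CC chemokines did not share one pattern. Of 19 further members of the mouse family, 10 are listed and 3 were tested by edgeR with none called. None was at an unadjusted edgeR p under 0.05, beside 1120 of all 11208 tested genes. DESeq2 called 1 of the 10, Ccl4, beside 1.54% of all genes tested there. The 3 tested by edgeR had a median log2 fold change of -0.34, against -0.003 over all tested genes. Ccl25, which draws T cells to thymus and intestine through Ccr9, was the most abundant in CPM, with 248, 270 and 307 counts in treated replicates 1 to 3 and 232, 266 and 239 counts in control replicates 1 to 3. The groups overlapped, and the log2 fold change of Ccl25 was 0.14 ± 0.10 SE (adjusted p = 0.651). Per length it had 5.93 ± 0.66 FPKM in treated libraries and 5.38 ± 0.24 FPKM in controls (SD, n = 3 each), so that its control level was close to that of Ccl7. Ccl21a, the ligand of lymphatic endothelium, is not listed in the tables used here.

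Ccl4, a close relative of Ccl3, resembled Ccl3 at lower counts. It had 8, 13 and 12 counts in treated replicates 1 to 3, against 0, 0 and 1 counts in control replicates 1 to 3, without overlap. The ratio of the 33 treated counts to the 1 control count was 32.5 (exact 95% interval 5.44 to 1321). It missed the filter on low counts with 6 libraries. Without control replicate 2, Ccl4 passed it through the treated libraries alone and was called higher by edgeR (log2 fold change 4.11), beside 7.96% of all tested genes. Without control replicate 3, and without treated replicate 1, 1 of the further CC chemokines was called higher, beside 1.04% and 0.637% of tested genes called. Nothing is read from these calls. Ccl17, the ligand of Ccr4, had 5, 5 and 6 counts in treated replicates 1 to 3 and 0, 1 and 4 counts in control replicates 1 to 3, a difference of 1 count between the nearest libraries.

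Of the 5 members 4 lie on chromosome 11, and Ccl20 lies on chromosome 1. Ccl2 and Ccl7 are neighbours at the start of a run that goes on with Ccl11, Ccl12, Ccl8 and Ccl1. Of these others Ccl11 had 0 counts over the treated libraries and 3 over the controls, Ccl8 had 3 and 0 in that order, and Ccl12 and Ccl1 are not listed. The level in this run was thus held by Ccl2 and Ccl7 in both groups. In the second run Ccl9 and Ccl6, which in mice act on Ccr1, lie between Ccl5 and Ccl3. Ccl9 had 12, 12 and 16 counts in treated replicates 1 to 3 against 12, 22 and 16 in control replicates 1 to 3. Ccl6 had 12, 11 and 11 counts in treated replicates 1 to 3, against 10, 26 and 10 in control replicates 1 to 3. Both overlapped between groups (log2 fold change -0.34 ± 0.29 and -0.45 ± 0.40 SE, adjusted p = 0.695 and 0.709), whereas Ccl5 and Ccl3 on either side of them, and Ccl4 beyond Ccl3, did not overlap. The high count of each in the controls was that of control replicate 2. Beyond Ccl4, Wfdc17 had 11 counts over the treated libraries and 0 over the controls. Of the 10 nearest protein-coding neighbours of Ccl20, Tm4sf20, Krtap28-13 and Daw1 are not listed, and Slc19a3 and Dner were not tested. None of the others was called, beside 1.46% of all tested genes.

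**Figure D3:**
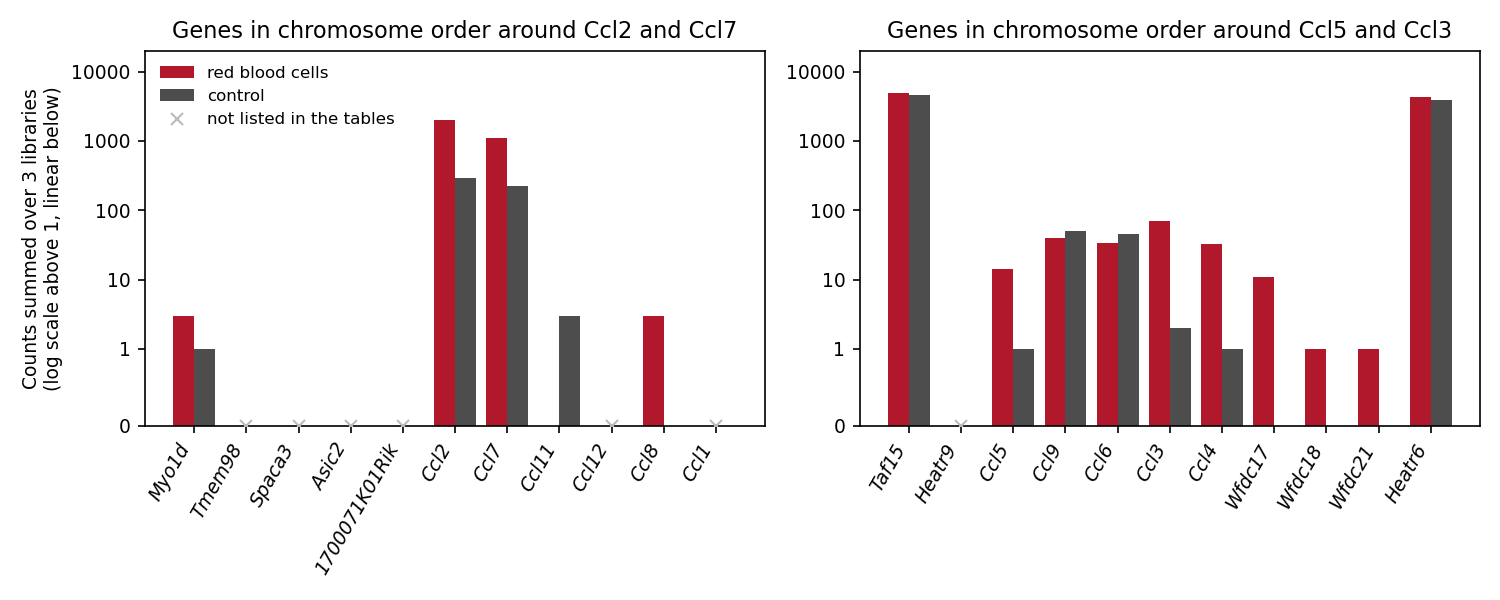
Counts summed over 3 treated (red, left bar) and 3 control (grey, right bar) libraries for the 5 protein-coding genes on each side of Ccl2 (left panel) and of Ccl3 (right panel), in chromosome order with even spacing, on an axis that is logarithmic above 1 and linear below. Crosses mark genes not listed in the tables. Ccl2 and Ccl7 are the only abundant genes of the left run, and between Ccl5 and Ccl3 lie Ccl9, with 40 treated and 50 control counts, and Ccl6, with 34 treated and 46 control counts.

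Receptors for these ligands had low counts. Of 11 CC chemokine receptors 6 are listed and none passed the filter on low counts. Ccr2, the receptor of Ccl2 and Ccl7, had 1 count over the treated libraries and 0 over the controls, and Ccr1 had 3 and 0 in that order. Ccr6, the receptor of Ccl20, had 2, 4 and 2 counts in treated replicates 1 to 3, against 0, 0 and 1 counts in control replicates 1 to 3. Ccr4, the receptor of Ccl17, had 2, 2 and 5 counts in treated replicates 1 to 3, against 13, 0 and 7 counts in control replicates 1 to 3, with overlap (ratio of sums 0.44, exact 95% interval 0.18 to 1.02). Ccr7, which binds Ccl21a, had 8, 13 and 7 counts in treated replicates 1 to 3, against 1, 4 and 2 counts in control replicates 1 to 3, without overlap (ratio of sums 3.94, exact 95% interval 1.68 to 10.7). Among 5 atypical chemokine receptors, which do not signal through G proteins, only Ackr3, which binds Cxcl12 and Cxcl11, was tested. It had 179 ± 11.6 CPM in treated libraries and 164 ± 7.20 CPM in controls (SD, n = 3 each), with a log2 fold change of 0.13 ± 0.07 SE (adjusted p = 0.55). The groups did not overlap, with the treated libraries higher, as in 10.4% of tested genes. Ackr3 was called higher without control replicate 2 (adjusted p = 0.025), in a fit that called 7.96% of all tested genes.

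The surface on which chemokines are displayed was abundant in both groups. Of 22 genes of heparan sulfate synthesis and its core proteins 15 were tested and none was called by edgeR or DESeq2, with a median log2 fold change of 0.03. An unadjusted edgeR p under 0.05 was held by 1 of the 15, beside 1120 of all 11208 tested genes. The syndecan Sdc3 had 885 ± 20.1 CPM in treated libraries and 846 ± 99.2 CPM in controls, and Sdc4 had 65.8 ± 1.82 CPM in treated libraries and 59.0 ± 4.07 CPM in controls (SD, n = 3 each; log2 fold change 0.16 ± 0.07 SE, adjusted p = 0.479). In that fit without control replicate 2, Sdc4 was called higher and the sulfotransferase gene Hs6st1 lower. Of 17 proteases that can trim CC chemokines 6 were tested and none was called by edgeR (median -0.04). Of the 6, 1 was at an unadjusted edgeR p under 0.05, beside the same 1120 of 11208 tested genes. DESeq2 called 1 of 15, Ctss, beside 1.54% of all genes tested there. Ctss, the lysosomal protease cathepsin S, was not tested by edgeR, with 11, 9 and 11 counts in treated replicates 1 to 3 and 1, 0 and 0 counts in control replicates 1 to 3. In the fit without control replicate 2, Plat, the tissue plasminogen activator gene, and Adam10 were called lower. Ctss was called higher there, having passed the filter through the treated libraries alone.

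Transcription factors known to act on chemokine promoters included several that rose. Of 22 such factors all were tested, 4 were called higher and none lower, against 1.46% of all tested genes called in either direction. Their median log2 fold change was 0.07. At an unadjusted edgeR p under 0.05 were 10 of the 22, beside 1120 of all 11208 tested genes. The list was chosen with earlier results of these data known, so nothing is read from either count. Relb, a subunit of the alternative NF-kB pathway, had 34.2, 35.5 and 35.1 CPM in treated replicates 1 to 3, against 16.9, 17.5 and 15.8 CPM in control replicates 1 to 3 (log2 fold change 1.06 ± 0.07 SE, edgeR adjusted p = 6.2e-05). Nfkb2, its partner in that pathway, had 94.7 ± 0.56 CPM in treated libraries and 52.3 ± 4.04 CPM in controls (SD, n = 3 each; log2 fold change 0.86 ± 0.07 SE). Junb, an AP-1 subunit, had 44.2 ± 2.92 CPM in treated libraries and 27.1 ± 1.09 CPM in controls (0.71 ± 0.07 SE). The 3 genes were higher in every treated library than in any control, as were 10.4% of tested genes. The same held of Irf1, Nfkb1, Rela, Rel, Bcl3, Cebpd, Fosl1 and Nfkbiz, while the other factors of this list overlapped. The fourth called factor, Irf1, a transcription factor of the interferon response, had 33.8 ± 1.53 CPM in treated libraries and 26.7 ± 0.95 CPM in controls (0.34 ± 0.07 SE, adjusted p = 0.042).

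Subunits of the classical NF-kB pathway moved less. Nfkb1 had 238 ± 2.66 CPM in treated libraries and 193 ± 12.7 CPM in controls (log2 fold change 0.30 ± 0.06 SE, adjusted p = 0.051), and Rela had 69.7 ± 2.79 CPM in treated libraries and 62.4 ± 2.29 CPM in controls (0.16 ± 0.06 SE, adjusted p = 0.405; SD, n = 3 each). Neither was called by edgeR, while DESeq2 called Nfkb1 higher (adjusted p = 0.0048). Fos had 0.42 ± 0.17 CPM in treated libraries and 0.73 ± 0.21 CPM in controls, and Jun had 147 ± 2.93 and 151 ± 1.72 CPM in the same order, neither called. Without control replicate 2, 9 factors were called higher, Nfkb1, Rela, Bcl3, Cebpd and Fosl1 in addition, and Fosb was called lower, in a fit that called 7.96% of all tested genes.

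Among cytokines that induce Ccl2 and the receptors and adaptors that relay them, 25 of 29 were tested, 2 were called higher and none lower by edgeR, against 1.16% of all tested genes called higher (median log2 fold change 0.09). At an unadjusted edgeR p under 0.05 were 7 of the 25, beside 1120 of all 11208 tested genes. DESeq2, which called 1.54% of all genes tested there, called 4, Tnf and Il1b in addition. Both missed the filter on low counts in edgeR. Traf2, the adaptor of TNF receptors, had 67.1, 63.0 and 63.4 CPM in treated replicates 1 to 3, against 43.6, 46.1 and 45.6 CPM in control replicates 1 to 3 (log2 fold change 0.52 ± 0.06 SE, adjusted p = 0.0029). Tnfrsf1b, the second TNF receptor, had 113 ± 4.83 CPM in treated libraries and 83.7 ± 7.33 CPM in controls (SD, n = 3 each; 0.43 ± 0.08 SE, adjusted p = 0.027). Tnfrsf1a, the first TNF receptor, had 82.2 ± 1.55 CPM in treated libraries and 89.4 ± 1.70 CPM in controls and was not called. The cytokines themselves were low. Tnf had 18, 7 and 11 counts in treated replicates 1 to 3, against 1, 0 and 0 counts in control replicates 1 to 3. Il1b had 9, 11 and 14 counts in treated replicates 1 to 3, against 1, 0 and 0 counts in control replicates 1 to 3. Tnf and Il1b thus resembled Ccl3 in having almost no counts in the controls. Il1a had 21, 14 and 12 counts in treated replicates 1 to 3 and 4, 6 and 3 counts in control replicates 1 to 3 (log2 fold change 1.80 ± 0.39 SE, adjusted p = 0.074). Without control replicate 2, 7 genes of this list were called higher, Il1a among them, and 3 lower, Il17ra, Ticam1 and Tlr4, beside 7.96% of all tested genes called. Il1a, Tnf and Il1b are among the 7, but passed the filter of that fit through the treated libraries alone, so nothing is read from their calls. Il1a passed the filter of the fit on all libraries in the same way, and nothing is read from its adjusted p there.

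Of 14 genes that govern the decay and stability of cytokine and chemokine transcripts 3 had an unadjusted edgeR p under 0.05, beside 1120 of all 11208 tested genes. Only 1 of the 14 was called higher by edgeR, against 1.16% of all tested genes, with a list median log2 fold change of 0.04. This was Zfp36l1, which binds AU-rich elements and promotes decay, with 93.4, 86.9 and 96.2 CPM in treated replicates 1 to 3, against 69.5, 68.2 and 68.8 CPM in control replicates 1 to 3 (0.42 ± 0.06 SE, adjusted p = 0.0089). Its relative Zfp36l2 had 112 ± 2.73 CPM in treated libraries and 135 ± 10.5 CPM in controls (SD, n = 3 each; -0.27 ± 0.07 SE, adjusted p = 0.135), and was called lower without control replicate 2. Zc3h12a, the ribonuclease once named after Ccl2, had 18.1 ± 0.41 CPM in treated libraries and 16.8 ± 1.3 CPM in controls and was not called.

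Over the 8 pathway lists 7 of 86 tested genes were called by edgeR, all higher, which is 8.14%, against 1.46% of all tested genes. The lists were chosen with earlier results of these data known, so nothing is read from this share or from the counts of single lists. Relb, Nfkb2, Junb and Traf2 were called with all 13 alternatives to the fit. Irf1 lost its call with any single library left out except control replicate 2. The call of Tnfrsf1b was lost on removing control replicate 1 or treated replicate 1, 2 or 3, and that of Zfp36l1 on removing treated replicate 1 or 3.

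**Figure D4:**
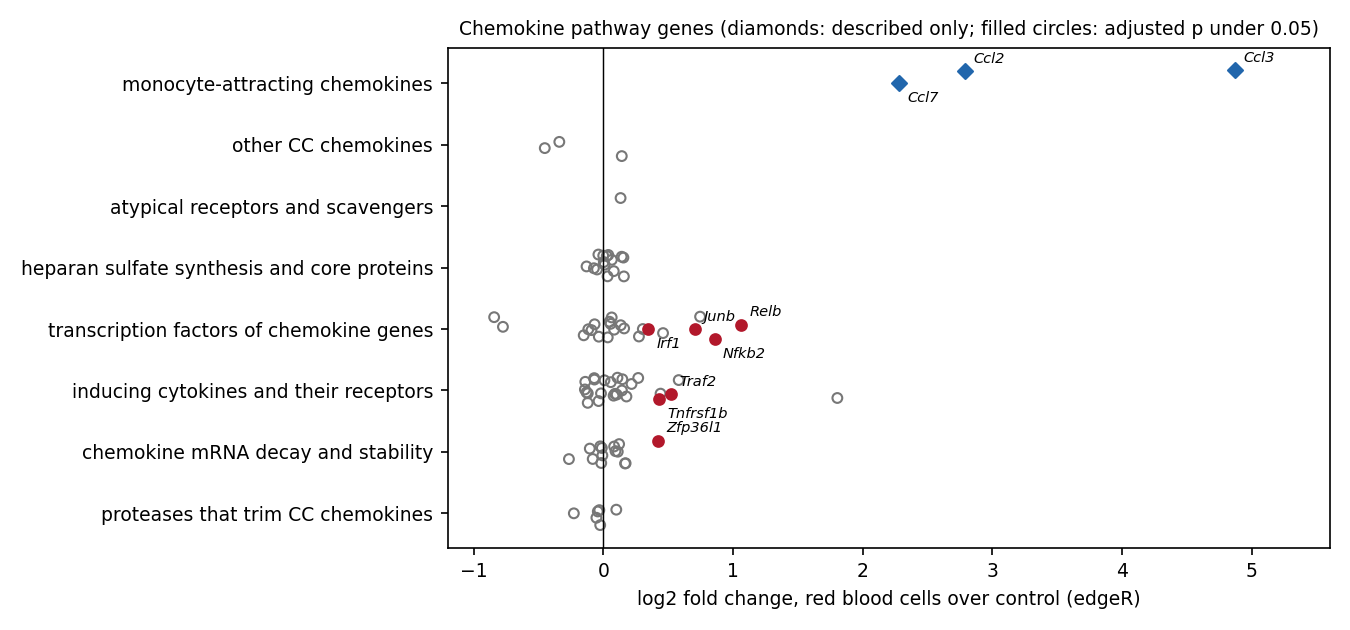
Log2 fold change (red blood cells over control) of the tested genes of each pathway list, 1 point per gene with vertical scatter only for legibility. Filled red circles are genes with an edgeR adjusted p under 0.05, open circles are the others, and blue diamonds are the members, whose values are description only. The called genes lie between 0.34 for Irf1 and 1.06 for Relb, while Ccl7, Ccl2 and Ccl3 lie at 2.28, 2.79 and 4.87.

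Blood cell genes also stood higher in the treated libraries. In bulk RNA, more cells of a type and more RNA per cell cannot be told apart. The globin Hbb-bs had 349.8, 346.2 and 296.8 CPM in treated replicates 1 to 3, against 1.45, 1.36 and 1.74 CPM in control replicates 1 to 3. Of 15 monocyte and macrophage markers all are listed and 6 were tested, of which Adgre1, Ptprc and Lyz2 were called higher by edgeR, against 1.16% of all tested genes. Adgre1, Ptprc and Lyz2 passed the filter on low counts through the treated libraries alone, so nothing is read from that count. Ptprc, the pan-leukocyte antigen CD45, had 12, 13 and 11 counts in treated replicates 1 to 3 and 0 in each control, at least 11.8-fold higher when 3 summed counts are taken as the upper limit for the control group. Adgre1, the macrophage antigen F4/80, had 16, 15 and 17 counts in treated replicates 1 to 3 and 0 in each control, at least 15.8-fold higher. The summed level of this list lay between 55.6 and 60.5 CPM in treated libraries and between 49.5 and 54.6 CPM in controls, most of it Csf1r and Cd68, which were not called.

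Markers of lymphocytes were fewer. The 8 listed of 16 T, NK and B cell markers summed to 1.0 to 1.5 CPM in treated libraries and 0.33 to 0.46 CPM in controls. The B cell gene Ms4a1 had 20 counts over the treated libraries and 0 over the controls, whereas the T cell genes Cd3e and Cd8a are not listed. Neutrophil markers, 5 of 11 listed, summed to 0.49 to 1.06 CPM in treated libraries and 0.45 to 0.49 CPM in controls. Platelet markers, 7 of 8 listed, summed to 2.0 to 2.72 CPM in treated libraries and 1.56 to 2.12 CPM in controls. Of these Ppbp had 22, 22 and 18 counts in treated replicates 1 to 3, against 5, 16 and 8 counts in control replicates 1 to 3, without overlap (log2 fold change 1.07 ± 0.35 SE, edgeR adjusted p = 0.316, not called), and Pf4 had 1 count over the treated libraries and 0 over the controls. Over the treated libraries Ccl3, Ccl4 and Ccl5 had 70, 33 and 14 counts, and Tnf, Il1b and Ctss had 36, 34 and 31. Ptprc and Adgre1 had 36 and 48. Per length the levels differed. Treated means were 1.63, 0.92 and 0.49 FPKM for Ccl3, Ccl4 and Ccl5, and 0.40, 0.46 and 0.39 FPKM for Tnf, Il1b and Ctss. They were 0.11 and 0.26 FPKM for Ptprc and Adgre1. The part of added blood cells in these counts was not tested. Ccl2 and Ccl7 had 2034 and 1106 counts over the treated libraries and 290 and 224 over the controls, and the part of added blood cells in them was not tested either.

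By the profile over the 6 libraries the genes most like Ccl2 were Hba-a2, C1s1, Hbb-bs, Alas2, Hba-a1 and Cxcl1, with Pearson r of at least 0.999 on log2(CPM + 1), among 9654 genes of at least 5 CPM. Ccl7 came next, with r = 0.998. The libraries form 2 groups, so these values largely restate that a gene is higher in the treated libraries and evenly so. The sizes differed: Hbb-bs had a log2 fold change of 7.77, Cxcl1, an attractant of neutrophils, of 2.06 (93.5 ± 4.63 CPM in treated and 22.4 ± 1.33 CPM in control libraries), and C1s1, a complement protease, of 1.29.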

How the data were processed

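RNA of 6 libraries was compared, 3 with red blood cells and 3 controls, grouped and numbered by the sample titles. Per the labels' protocols, TRIzol RNA was made into stranded mRNA libraries. The submitters' processing notes name GRCm39, while the aligner, the counting tool, its annotation and its strand setting have no statement in the sources read. The authors deposited raw counts per gene symbol and FPKM, which equal the counts scaled by library total and gene length (largest relative departure 2.9e-07), so both describe the same reads.

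Differences in counts were fitted by edgeR 4.0.16 under R 4.3.3 (filterByExpr with minimum count 10 and minimum total 15, TMM, glmQLFit and glmQLFTest, two-sided), which kept 11208 genes with 99.96% of the counts. FPKM were tested with limma 3.58.1 on log2(FPKM + 1) for genes of at least 1 FPKM in either group. P-values were adjusted over all tested genes by the Benjamini-Hochberg method, and calls are at 0.05. The edgeR test gives no SE, so each SE is the absolute log2 fold change divided by the square root of the quasi-likelihood F statistic. It is approximate, most of all at low counts. The scripts were tested on simulated counts. CPM use the total of all listed counts. Intervals and floors cover counting error only, since PCR copies cannot be told from separate molecules here; 3 counts over the controls are 0.056 CPM.

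The members and gene lists were chosen with earlier results of these data known. Named genes are the members, the called and lowest-p genes of each list, leading or absent cell markers, the 6 genes most like Ccl2, and neighbours by RefSeq gene order on GRCm38.p6. Other named genes were chosen after their values were seen. Coding sequences were the longest reading frames of GENCODE M21 transcripts nearest in length to the gene model, aligned with Biopython 1.88, in place of a protein comparison that was not run. Motifs were searched in windows of 250 bases before to 50 after the start. No column of another sample was used.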

Additional observations from a re-analysis of the deposited data

How the results depend on the processing

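The log2 fold changes of Ccl2, Ccl7 and Ccl3 kept their direction with RLE scaling, no scaling beyond the library total, DESeq2 1.42.0, no filter, leaving out the erythroid markers, the replicate block and each library left out; with a filter of 1 CPM in 3 libraries Ccl3 was not tested. The ratio of Ccl5, 13.8, was 9.05 to 16.3 with another library left out and could not be computed without control replicate 1, which held its 1 control count. The 164 genes called numbered between 62 and 899 with a library left out, 899 without control replicate 2 and 72, 62 and 79 without treated replicates 1, 2 and 3. The 7 calls over the pathway lists numbered 12 with DESeq2 (Ccl4, Nfkb1, Il1b, Tnf and Ctss in addition) and 12 without a filter. These fits called 1.54% and 1.28% of all genes tested there. Ccl4, Il1b, Tnf and Ctss had 1 count each over the controls and missed the filter on low counts in edgeR. With a library left out the list calls numbered 4 (without treated replicate 3) to 29 (without control replicate 2). Those 2 fits called 0.7% and 7.96% of all tested genes. Fits without a library filtered anew, and those without a filter tested more genes; otherwise the cause was not tested. Calls on FPKM, 131, numbered 49 to 423 with a library left out, and 132 and 153 with a pseudocount of 0.1 and no filter. All 6 genes most like Ccl2 remained so on FPKM.

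With the replicate number as a block (replicate block) 126 genes were called, 97 on FPKM, and 6 over the pathway lists, where Irf1 lost its call (adjusted p = 0.089). The labels do not say whether the numbers pair the libraries. Deviations of same-numbered libraries correlated at -0.04, 0.03 and 0.07 for numbers 1, 2 and 3, and not every library correlated best with its own number. With so few libraries per group these values cannot decide whether the libraries are paired. At these depths members with fewer than 10 counts per library, Ccl5 and Ccl20, are limited by counting.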
